A study of Rattus norvegicus with 24 samples.

Results

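Genes of the choroid plexus epithelium were followed in RNA sequencing of the rat hippocampus. The 9 listed genes were Ttr, Folr1, Kl, Clic6, Aqp1, Otx2, Enpp2, Sostdc1 and Slc4a5, chosen by symbol as markers of this tissue, and 8 of them were matched among the 20318 features of the table. Otx2 was not analysed here. All 8 passed the filter on low values, which asked for 10 or more normalised counts on average, as did 16119 features in all. The members were picked by name and not by their values, although earlier results of these data were known when the list was made.

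All rats were female and 6 months old at the start, and the tissue was frozen hippocampus. Treatment rats (n = 5) were ovariectomised, received vehicle for 3 weeks and then estradiol (E2) for 2 weeks. Prevention rats (n = 5) were ovariectomised and received estradiol for 5 weeks. OVX rats (n = 7) were ovariectomised and received vehicle for 7 weeks. SHAM rats (n = 7) had no ovary removal and also received vehicle for 7 weeks. The vehicle groups thus had a longer course than either estradiol group. Estradiol and length of dosing cannot be told apart where these groups are compared. No source used here gives the strain, the estradiol dose or the animals behind a library, so p-values measure the spread between these libraries, which may be technical in part.

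The choroid plexus is a sheet of epithelium that hangs into the brain ventricles and secretes cerebrospinal fluid. One fold of it lies along the inner edge of the hippocampus. Its cells pump ions and bicarbonate, pass water through channels, carry folate into the fluid and release transport proteins, of which transthyretin, the thyroxine carrier encoded by Ttr, is the most abundant product. In bulk RNA, fewer epithelial cells and less RNA per cell cannot be told apart.

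Column totals of the table ran from 35374933 to 38830742 normalised counts. Read depth is not given, and no fixed value of 1 read was seen, as at most 9 features of a library shared a positive value. A group of 7 libraries (all 5 Prevention libraries and Treatment replicates 1 and 2) had the feature LOC257642 above 16 on the log2 scale and is called the high set, and the other 17 are called the low set. Hippocampal neuron markers were present throughout, with 12 of 12 listed genes in the table and a summed level of 68765 to 97083 in Treatment, 64636 to 99887 in Prevention, 69661 to 98960 in OVX and 72444 to 101758 in SHAM libraries.

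Ttr spanned a 486-fold range between libraries, from 281 to 136652 normalised counts, or 0.000751 to 0.376% of a library's total. It measured 337, 281, 12498, 71606 and 1019 normalised counts in Treatment replicates 1, 2, 5, 6 and 7. In Prevention replicates 1 to 5 it measured 68774, 9262, 3213, 46280 and 798. OVX libraries had a lowest value of 565, a median of 10032 and a highest value of 73531, and SHAM libraries 384, 1068 and 136652. Every group thus held libraries at or below 1068 and libraries at or above 12498, and the groups overlapped. The 4 highest libraries came from 4 different groups: SHAM replicate 7, OVX replicate 2, Treatment replicate 6 and Prevention replicate 1. Ordered along the log2 scale the libraries formed a series in which the widest gap covered 17.1% of the range, with 12 libraries on each side of it, so they were not divided into clusters.

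Among the secreted products, Sostdc1, which encodes an antagonist of BMP and Wnt signals, had nearly the same spread as Ttr, a 477-fold range. Its values were 5.59, 4.74, 166, 1015 and 15.3 normalised counts in Treatment replicates 1, 2, 5, 6 and 7. In Prevention replicates 1 to 5 they were 1143, 190.3, 58.2, 872 and 23.1. OVX libraries had a lowest, median and highest value of 8.30, 156 and 1074, and SHAM libraries of 10.4, 19.2 and 2260. The libraries high and low in Ttr were also high and low in Sostdc1, and the groups overlapped.

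Enpp2 encodes autotaxin, the secreted enzyme that makes lysophosphatidic acid, and is also a gene of oligodendrocytes. It had the narrowest spread of the 8 genes, a 10.1-fold range. The values were 3578, 3731, 6838, 21873 and 5894 normalised counts in Treatment replicates 1, 2, 5, 6 and 7, and 23502, 7335, 5405, 16919 and 4412 in Prevention replicates 1 to 5. OVX libraries had a lowest, median and highest value of 3598, 7597 and 21585, and SHAM libraries of 3785, 5769 and 36015. No library fell below 3578, and the upper end was again taken by SHAM replicate 7.

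The ion and water transporters spanned wide ranges too. Aqp1, the water channel of the epithelium's ventricular face, measured 43.7, 31.7, 165, 718 and 47.7 normalised counts in Treatment replicates 1, 2, 5, 6 and 7, and 866, 135, 83.7, 586 and 34.9 in Prevention replicates 1 to 5. Slc4a5, a sodium bicarbonate cotransporter, measured 23.8, 25.7, 275, 1384 and 43.7 in the same Treatment libraries and 1704, 224, 123, 1096 and 36.1 in the Prevention libraries. Clic6, a chloride intracellular channel protein, measured 73.5, 49.6, 512, 3192 and 168 in Treatment and 3506, 495, 253, 2519 and 199 in Prevention libraries. In each of the 3 genes Treatment replicate 6 and Prevention replicates 1 and 4 were high and Treatment replicates 1 and 2 were low, as for Ttr.

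The vehicle groups covered the same ground for these transporters. Aqp1 had a lowest, median and highest value of 23.4, 144 and 853 in OVX and 20.5, 40.0 and 2043 in SHAM libraries. Slc4a5 ran over 26.9, 255 and 1396 in OVX and over 28.3, 58.7 and 3340 in SHAM libraries. Clic6 ran over 102, 442 and 3223 in OVX and over 63.3, 157 and 6474 in SHAM libraries. All groups overlapped in all 3 genes.

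Folr1 and Kl encode membrane proteins with other tasks, the folate receptor that moves folate into cerebrospinal fluid and klotho, a coreceptor for the hormone FGF23 that is also shed into the fluid. Folr1 measured 43.6, 48.6, 181, 762 and 86.1 normalised counts in Treatment replicates 1, 2, 5, 6 and 7, and 779, 150.3, 84.5, 575 and 83.0 in Prevention replicates 1 to 5. It had a lowest, median and highest value of 41.2, 124 and 824 in OVX and of 38.6, 51.0 and 1449 in SHAM libraries. Folr1 covered a 37.5-fold range, with the groups overlapping.

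Kl measured 32.7, 30.8, 467, 2527 and 50.8 normalised counts in Treatment replicates 1, 2, 5, 6 and 7, and 2896, 440.3, 159.7, 1976 and 49.2 in Prevention replicates 1 to 5. Its lowest, median and highest values were 33.1, 331 and 2615 in OVX and 34.9, 63.8 and 5474 in SHAM libraries. Kl covered a 178-fold range, and its groups overlapped as those of Ttr did.

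**Figure D1:**
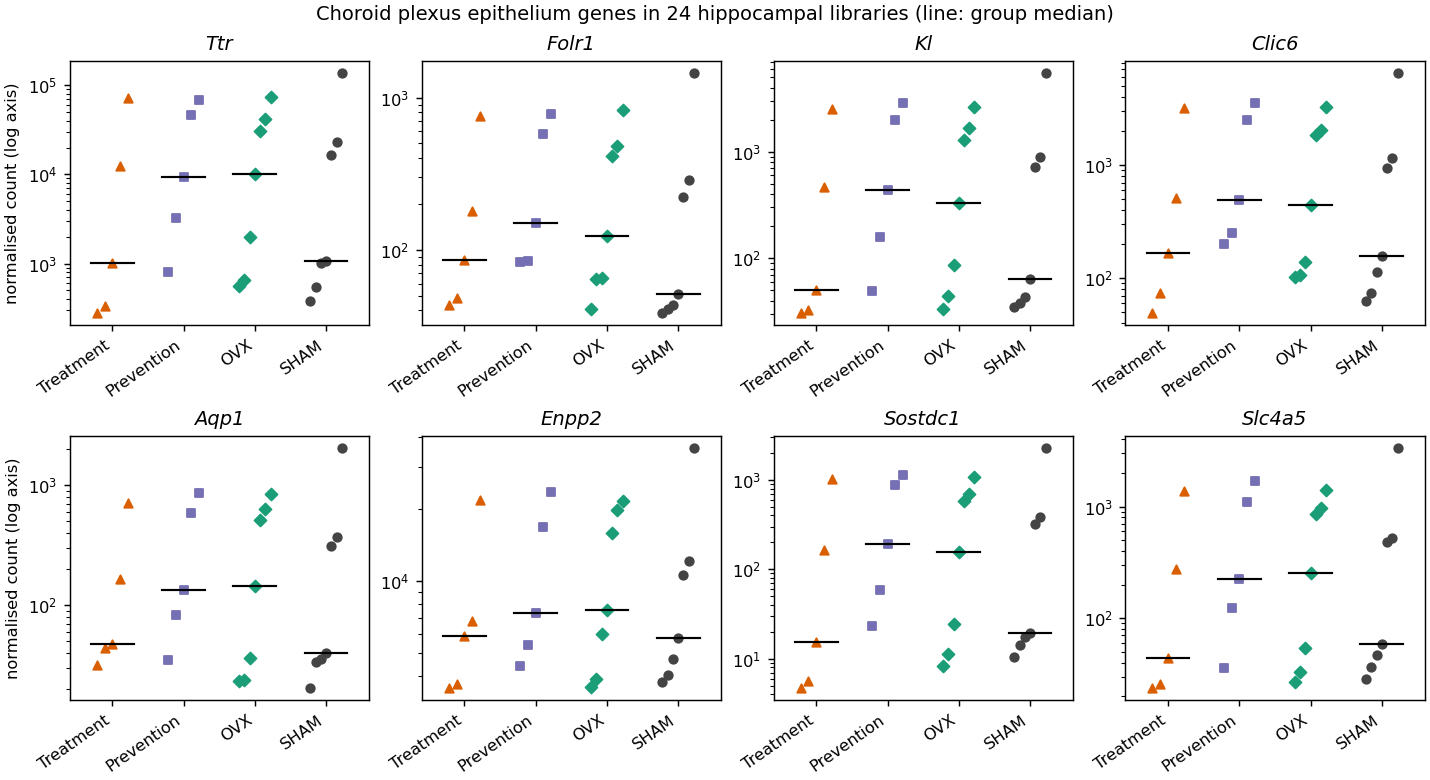
Normalised counts (log axis) of the 8 genes in each library of the Treatment, Prevention, OVX and SHAM groups, with the group median as a line. In every panel the groups overlap, and the highest point is SHAM replicate 7 (Ttr 136652, Kl 5474).

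Promoter sequences were at hand for 4 of the 8 genes, Aqp1, Slc4a5, Kl and Ttr, in the RefSeq table for build GRCr8. The first 3 are shown because the genes move together while the sequences before their starts differ in kind. The bases are the 250 before the annotated start, on the plus strand, 5′ to 3′, at chr4:85812534-85812783 for Aqp1, chr4:117283044-117283293 for Slc4a5 and chr12:5325753-5326002 for Kl, and capitals mark a TATAAA match.
Aqp1: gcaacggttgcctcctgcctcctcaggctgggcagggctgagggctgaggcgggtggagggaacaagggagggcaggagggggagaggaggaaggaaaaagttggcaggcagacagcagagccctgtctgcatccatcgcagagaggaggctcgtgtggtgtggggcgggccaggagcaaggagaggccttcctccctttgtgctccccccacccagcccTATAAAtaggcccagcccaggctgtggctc
Slc4a5: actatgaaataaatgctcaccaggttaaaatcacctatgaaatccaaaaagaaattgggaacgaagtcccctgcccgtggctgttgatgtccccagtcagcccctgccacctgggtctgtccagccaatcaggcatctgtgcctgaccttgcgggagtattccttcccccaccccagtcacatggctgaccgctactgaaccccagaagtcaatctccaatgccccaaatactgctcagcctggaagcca
Kl: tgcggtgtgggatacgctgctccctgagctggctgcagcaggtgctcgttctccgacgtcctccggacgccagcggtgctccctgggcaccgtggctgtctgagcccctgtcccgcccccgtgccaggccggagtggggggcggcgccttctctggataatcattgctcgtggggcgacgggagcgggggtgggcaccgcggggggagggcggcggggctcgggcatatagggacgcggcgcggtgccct
Of these, Aqp1 held TATAAA 30 bases before its start, a match found on either strand in 12.9% of the 33469 promoters of the table. Kl lay in GC-rich sequence, with 73.2% G or C and 27 CG pairs in the 250 bases, against a median of 51.2% and 5 pairs over all promoters. Aqp1 had 65.2% and 5 pairs, Slc4a5 52.8% and 4, and Ttr 40.4% and 3. Neither TAATCC, the core bound by bicoid-class homeodomain proteins (in 6.34% of all promoters), nor the estrogen response element palindrome (GGTCA, any 3 bases, TGACC, in 8 promoters, 0.0239%) was found in any of the 4 windows on either strand. A match or its absence describes these letters only.

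All 7 other genes followed Ttr closely across the 24 libraries. Pearson's r on log2(normalised count + 1) was 0.995 for Sostdc1, 0.994 for Kl and 0.990 for Slc4a5. It was 0.985 for Clic6, 0.964 for Aqp1, 0.956 for Folr1 and 0.933 for Enpp2. Spearman's rho was 0.983 for Sostdc1, 0.988 for Kl, 0.978 for Slc4a5, 0.978 for Clic6, 0.891 for Aqp1, 0.914 for Folr1 and 0.893 for Enpp2. For each of these 7 relations both coefficients had a two-sided permutation p = 1e-05, the smallest that 100000 resamples can give. Without the 2 libraries farthest from the median Ttr, SHAM replicate 7 and Treatment replicate 2, r was 0.993 for Sostdc1, 0.994 for Kl, 0.991 for Slc4a5, 0.982 for Clic6, 0.963 for Aqp1, 0.954 for Folr1 and 0.924 for Enpp2. When each of the 24 libraries was left out in turn, the ranges of r of Sostdc1 (0.994 to 0.996) and Kl (0.993 to 0.995) overlapped. Those of Aqp1 (0.9606 to 0.9748) and Folr1 (0.952 to 0.965) overlapped too. Such ranges show the weight of single libraries only, and a difference in r between genes was not tested. Over these ranges the r of Enpp2 (0.927 to 0.943) stayed below the others, whereas rho was lowest for Aqp1 (0.891, against 0.893 for Enpp2). The 28 pairs among the 8 genes had r between 0.933 and 0.995.

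The relation held inside the OVX and SHAM groups and inside both library sets. It was not computed inside Treatment or Prevention alone. Within the 17 libraries of the low set r lay between 0.919 and 0.995 (permutation p = 1e-05 for each of the 7 genes). Within the 7 of the high set r lay between 0.965 and 0.997, lowest for Folr1 (0.9652) and Enpp2 (0.9653). Among the 7 OVX libraries r was 0.996 for Kl (exact permutation p = 0.000198) and lowest for Enpp2, at 0.922 (exact permutation p = 0.0129). Among the 7 SHAM libraries r was 0.997 for Sostdc1 (exact permutation p = 0.000397) and again lowest for Enpp2, at 0.935 (exact permutation p = 0.00794). With each value set against its group mean, r was 0.996 for Sostdc1 and 0.933 for Enpp2.

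The genes differed in what remained where Ttr was scarce. A curve of a constant level plus a fixed number of counts per Ttr count was fitted to each gene on the log2 scale, and its constant is the level carried to a Ttr of 0. Counts are not scaled by transcript length, so constants and rates are not compared between genes. For Sostdc1 the constant was 1.27 ± 0.842 normalised counts (SE, 24 libraries), and the part of its mean lying above the constant was 99.7%. For Kl it was 17.4 ± 1.68, for Slc4a5 19.6 ± 1.91 and for Clic6 65.8 ± 7.63, with 98.1, 96.4 and 94.3% of the mean above it. For Aqp1 the constant was 24.6 ± 2.84 and for Folr1 45.3 ± 3.43, with 92.4 and 84.3% of the mean above. Enpp2 had a constant of 4281 ± 227 normalised counts, and 59.7% of its mean lay above it. The part of Enpp2 that came with Ttr equalled the constant part only at a Ttr of about 15082, against about 451 for Kl and 850.1 for Slc4a5.

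**Figure D2:**
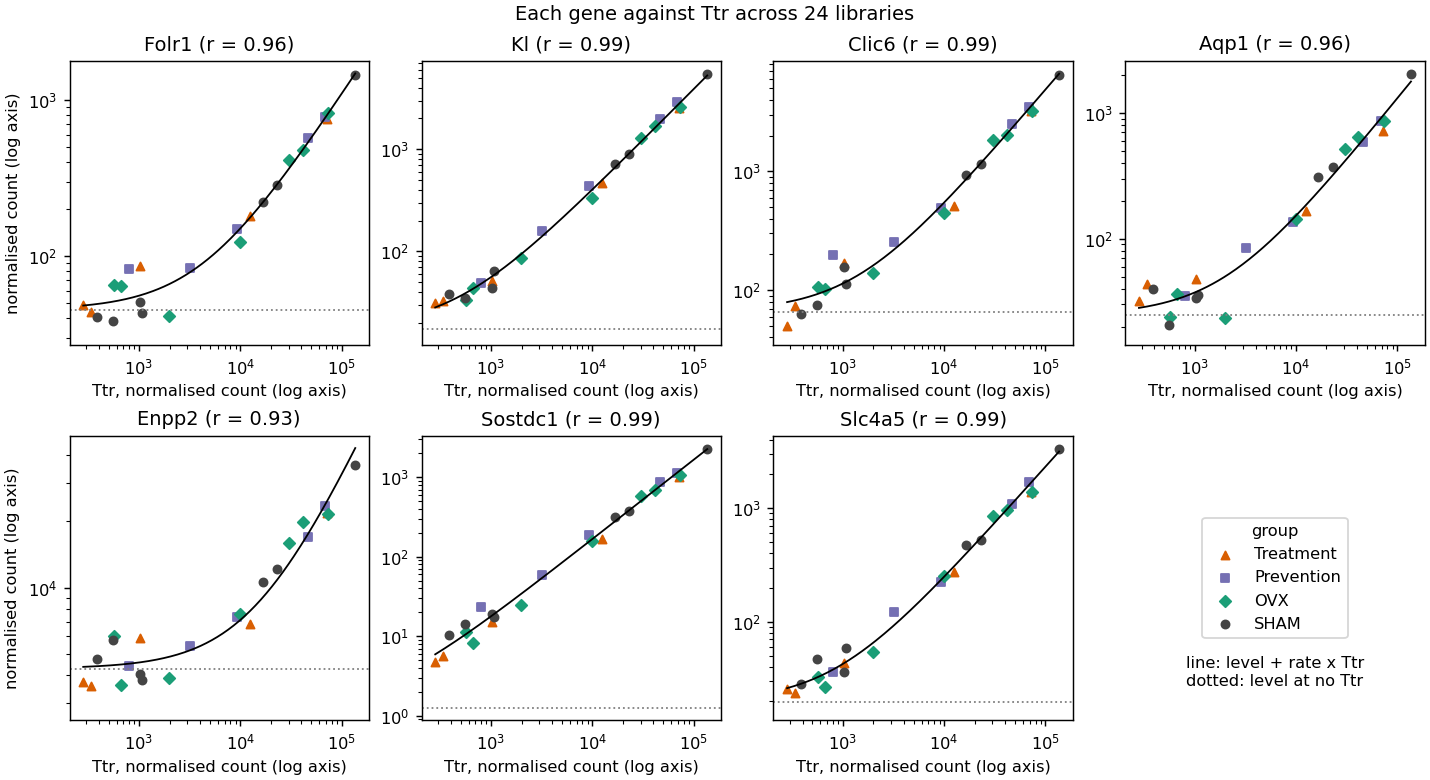
Each of 7 genes (normalised count, log axis) against Ttr (normalised count, log axis) in 24 libraries, coloured by group, with the fitted curve as a line and its constant level dotted. Sostdc1 runs nearly straight (r = 0.995), while Enpp2 levels off near its constant of 4281 where Ttr is scarce.

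Points lay close to these curves. The SD of the residuals was 0.17 on the log2 scale for Kl, 0.24 for Slc4a5, 0.25 for Enpp2, 0.29 for Sostdc1, 0.30 for Folr1, 0.34 for Clic6 and 0.38 for Aqp1, where the log2 values themselves had an SD of 2.59 for Kl, 1.04 for Enpp2 and 2.07 for Aqp1. The farthest single values were Aqp1 in OVX replicate 1, 1.06 below its curve, and Clic6 in Prevention replicate 5, 0.93 above. In OVX replicate 1 and in Treatment replicate 6 all 7 genes lay below their curves, and in Prevention replicate 3, OVX replicate 7 and SHAM replicate 1 all 7 lay above.

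Enpp2's distance from its curve moved with oligodendrocyte markers. The summed level of 10 oligodendrocyte genes ran from 258936 to 427466 normalised counts in Treatment, 325878 to 379689 in Prevention, 291831 to 499744 in OVX and 264182 to 481908 in SHAM libraries. Across 24 libraries the Enpp2 residual and this sum on the log2 scale had r = 0.633 (permutation p = 0.00112) and rho = 0.647 (permutation p = 0.00095), both two-sided. Without the 2 libraries farthest from the median sum r was 0.584 (permutation p = 0.00477). It was 0.599 within the low set (n = 17, permutation p = 0.0127) and 0.791 within the high set (n = 7, exact permutation p = 0.0401). This relation was chosen after the data were seen, and its part in the Enpp2 values was not tested further.

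No member passed the test between groups. In each of the 6 comparisons limma called 0 of the 8 genes at an adjusted p under 0.05, and 0 of 8 had an unadjusted p under 0.05. Over all 16119 features tested, 0% were called for Treatment against OVX, for Treatment against Prevention and for OVX against SHAM, 0.304% for Prevention against OVX, 0.0062% for Treatment against SHAM and 0.354% for Prevention against SHAM. At an unadjusted p under 0.05 there were 868 to 3006 features per comparison.

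Ttr averaged 17148 ± 30881 normalised counts in Treatment, 25665 ± 30310 in Prevention, 22649 ± 27561 in OVX and 25638 ± 49814 in SHAM libraries (SD, n = 5, 5, 7 and 7). Its log2 change in limma was -1.48 for Treatment against OVX (SE 1.66, 95% interval -4.90 to 1.94, adjusted p = 0.853) and 0.47 for Prevention against OVX (SE 1.66, -2.95 to 3.89, adjusted p = 0.921). Treatment against Prevention gave -1.95 (SE 1.79, -5.65 to 1.74, adjusted p = 0.979), and OVX against SHAM 0.83 (SE 1.51, -2.29 to 3.95, adjusted p = 0.956). Against SHAM, Treatment gave -0.65 (-4.07 to 2.77, adjusted p = 0.977) and Prevention 1.30 (-2.12 to 4.72, adjusted p = 0.798). These comparisons share libraries, so their values are not independent. The interval of each reaches 1.74 or more on the log2 scale either way. The standard error of Ttr was 1.51 to 1.79, against a median of 0.0797 to 0.0943 over all features, so only large changes could have been detected. With the library set as a term the change of Ttr turned to 0.51 (SE 1.84) for Treatment against OVX and to 1.34 (SE 1.84) for Treatment against SHAM. It was 5.45 (SE 2.89) for Prevention against OVX, 6.28 (SE 2.89) for Prevention against SHAM and -4.94 (SE 2.23) for Treatment against Prevention, with an adjusted p of 0.936 to 1. All Prevention libraries are in the high set and all OVX and SHAM libraries in the low set. The set term therefore rests on Treatment replicates 1 and 2 against 5, 6 and 7 alone. Apart from that difference, group and set cannot be told apart for Prevention against OVX or SHAM. Leaving out a single library also turned the sign of Ttr for Prevention against OVX (Prevention replicate 1 or 4, or OVX replicate 3 or 5) and for Treatment against SHAM (Treatment replicate 1 or 2, or SHAM replicate 7).

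The other 7 genes had changes of the same sign as Ttr in 5 comparisons, and 1 gene had the opposite sign for Treatment against SHAM. None passed the test. The 8 genes moved together between libraries (r between 0.933 and 0.995 in their pairs), so a shared sign adds little to that of Ttr. For Treatment against OVX the 8 changes lay between -1.48 and -0.45 with a median of -0.995, against a median of 0.00 over all features. For Prevention against OVX they lay between 0.07 and 0.81 (median 0.48), and for Treatment against Prevention between -2.27 and -0.51 (median -1.52). For OVX against SHAM they lay between 0.17 and 0.83 (median 0.49), for Prevention against SHAM between 0.23 and 1.31 (median 0.98), and for Treatment against SHAM between -0.96 and 0.02 (median -0.47). Every median over all features was 0.00. The smallest adjusted p of any member in any comparison was 0.753.

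With log2 Ttr as a covariate, which compares the groups at equal Ttr along a straight line, the standard errors of the 7 genes fell to between 0.14 and 0.34. Again 0 of 7 genes were called in any comparison. Over the 16118 features left, 0% were called for Treatment against OVX and OVX against SHAM, 1.51% for Prevention against OVX, 0.0248% for Treatment against Prevention, 0.0062% for Treatment against SHAM and 0.807% for Prevention against SHAM. For Kl the change at equal Ttr was 0.22 for Treatment against OVX (SE 0.17, 95% interval -0.13 to 0.56), 0.18 for Prevention against OVX (SE 0.17, -0.17 to 0.52) and -0.13 for OVX against SHAM (SE 0.15, -0.44 to 0.19). For Slc4a5 it was 0.17 (SE 0.19, -0.22 to 0.56), 0.11 (SE 0.18, -0.27 to 0.49) and -0.29 (SE 0.17, -0.64 to 0.06) in the same comparisons. These intervals are far narrower than those without the covariate, but a straight line on the log2 scale does not follow the flat part of the curves. For every gene but Sostdc1 the constant equals the part that comes with Ttr inside the range of the libraries (at 451 for Kl and 850 for Slc4a5). Median residuals from the curves in Treatment and OVX were -0.16 and -0.0069 for Slc4a5 and -0.095 and -0.12 for Kl. The Treatment against OVX change at equal Ttr thus depends on the shape fitted.

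**Figure D3:**
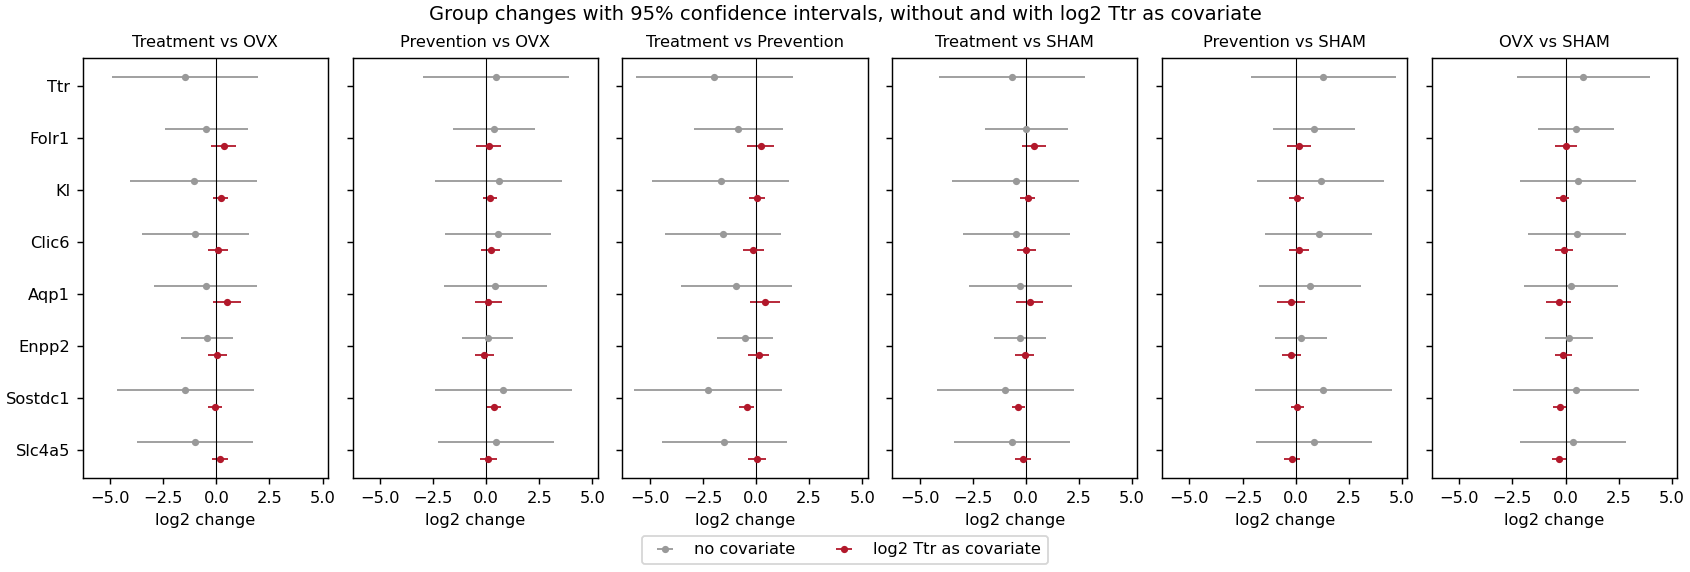
Log2 change (horizontal axis) of each gene in 6 comparisons, with 95% confidence intervals from limma, without a covariate in grey and with log2 Ttr as covariate in red. Grey intervals all include 0 (Ttr, Treatment against OVX, -4.90 to 1.94), and the red ones are narrower.

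At equal Ttr, Sostdc1 was the 1 of 7 genes with an unadjusted p under 0.05 for Prevention against OVX, Treatment against Prevention and Treatment against SHAM, and 0 of 7 had one in the other comparisons. Over the 16118 features 3275, 1196 and 1092 had such a p in those 3 comparisons, so 1 of 7 is no result about the members. The log2 change of Sostdc1 for Treatment against Prevention was -0.43 (SE 0.17, 95% interval -0.78 to -0.09, unadjusted p = 0.0160, adjusted p = 0.551 in limma), which did not pass over all features. It differed by 0.36 between Prevention and OVX (SE 0.15, unadjusted p = 0.0236, adjusted p = 0.173) and by -0.35 between Treatment and SHAM (SE 0.15, unadjusted p = 0.0303, adjusted p = 0.672), and did not pass there either. Its residuals from the mixing curve lay between -0.32 and -0.22 in the 5 Treatment libraries, between 0.0059 and 0.64 in the 5 Prevention libraries, between -0.51 and 0.22 in OVX and between -0.12 and 0.43 in SHAM libraries. OVX overlapped both Treatment and Prevention. In each other member the Treatment and Prevention residuals overlapped, as in Kl (-0.15 to 0.13 against 0.03 to 0.23). Sostdc1 was picked by its p-value, and the share of all features without overlap was not computed. Its ranges are therefore a description only. With a pseudocount of 8 in place of 1 the Treatment against Prevention change was -0.20, and with log2 Kl in place of Ttr the Prevention against OVX change was 0.18, so these values changed with the pseudocount and with the gene used for matching. With the library set as a term the Prevention against OVX change was 0.16 (SE 0.30), where the set term again rests on the Treatment libraries alone.

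Other genes of the choroid plexus followed Ttr to a varying degree. Of 34 listed genes beyond the members, 33 were tested, their median r with Ttr was 0.889, and 13 reached 0.9. Over all 16118 other features the median r was -0.0186, and 41 reached 0.9 (0.254%), among them all 7 members. The closest were F5, coagulation factor V (r = 0.992, 16.5 to 3459 normalised counts), Cldn2, the tight junction protein claudin-2 (0.986, 31.2 to 2749), Tmem72 (0.982, 13.4 to 3262), Kcnj13, an inward rectifier potassium channel (0.974, 10.2 to 1757), and Mfrp, a membrane protein related to frizzled receptors (0.970, 29.1 to 4767). Each of these 5 was highest in SHAM replicate 7. At the other end were Lbp, lipopolysaccharide-binding protein (r = 0.143), Rdh5, a retinol dehydrogenase (0.174), Car12, a carbonic anhydrase (0.180), Slc12a2, a sodium, potassium and chloride cotransporter (0.512), and Wfdc2 (0.578). Kcne2, a potassium channel subunit, had r = 0.8998, Igf2, insulin-like growth factor 2, 0.923, and Htr2c, the serotonin 2C receptor, which neurons also express, 0.782. Limma called 0 of these 33 genes in either direction in every comparison, and their median change lay between -0.20 and 0.21. At an unadjusted p under 0.05 there were also 0 of 33 in each.

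Among all features with a symbol and a mean of at least 50, the 10 most like Ttr outside the members were F5, Cldn2, Slco1a2, Tmem72, Kcnj13, RGD1564074, Prr32, Mfrp, Pla2g5 and Prlr, with r from 0.992 for F5 to 0.956 for Prlr over 24 libraries. Slco1a2, an organic anion transporter, ran from 1.87 to 966 normalised counts (r = 0.985), and Pla2g5, a secreted phospholipase, from 9.25 to 502 (r = 0.970). Sostdc1, Kl, Slc4a5 and Clic6 ranked 1, 2, 4 and 7 of the 16118 features, Aqp1 14, Folr1 17 and Enpp2 24.

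Prlr, the prolactin receptor, is one of the genes named by rule, and is described further because it had the smallest adjusted p of the 33 at equal Ttr. It measured 21.6, 14.2, 67.6, 405 and 27.1 normalised counts in Treatment replicates 1, 2, 5, 6 and 7. In Prevention replicates 1 to 5 it measured 467, 87.8, 73.2, 415 and 27.4. In OVX replicates 1 to 7 the values were 27.9, 219, 26.8, 43.6, 16.8, 162 and 153, and in SHAM replicates 1 to 7 they were 83.5, 8.86, 109.7, 26.7, 18.4, 26.5 and 484. Per 1000 Ttr counts this was 5.66 in Treatment replicate 6 and 6.79 in Prevention replicate 1, against 2.98 in OVX replicate 2, 3 libraries of similar Ttr (71606, 68774 and 73531) picked after their values were seen. OVX replicate 2 had the lowest such value of the 24 libraries. SHAM replicate 7 had 3.54. The libraries next in order had Ttr from 46280 down to 9262. Among them OVX replicates 4, 6 and 7 had 4.35, 3.92 and 5.04, and SHAM replicates 1 and 3 had 5.03 and 4.73. Treatment replicate 5 had 5.41, and Prevention replicates 2 and 4 had 9.48 and 8.96. The ratio was higher where Ttr was scarce, up to 64.2 in Treatment replicate 1, so libraries of unlike Ttr are not matched by it. Where Ttr was at or below 1068, Prlr was at 27.4 or less in every group.

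At equal Ttr the log2 change of Prlr was 0.80 for Prevention against OVX (SE 0.24, 95% interval 0.31 to 1.30, unadjusted p = 0.00286, adjusted p = 0.0768 in limma) and 0.70 for Prevention against SHAM (SE 0.24, unadjusted p = 0.00886, adjusted p = 0.160), and neither passed over all features. For Treatment it was 0.45 against OVX (SE 0.24, -0.05 to 0.96, adjusted p = 0.703) and 0.35 against SHAM (SE 0.24, -0.15 to 0.85, adjusted p = 0.809). Without the covariate it was 1.06 for Prevention against OVX (SE 0.94, adjusted p = 0.590). No curve was fitted to Prlr, and a straight line on the log2 scale may not match the groups where Ttr is scarce. At a Ttr of 1068 or less Prlr lay between 8.86 (SHAM replicate 2) and 27.4 (Prevention replicate 5). All Prevention libraries and no OVX or SHAM library belong to the high set, so a set term rests on the Treatment libraries alone. With that term the Prlr change at equal Ttr for Prevention was 0.32 (SE 0.48) against OVX and 0.20 (SE 0.49) against SHAM. At equal Ttr 0 of the 33 other genes were called in any comparison. An unadjusted p under 0.05 was found for 2 of 33 for Treatment against OVX (1167 of all 16118 features), 2 for Prevention against OVX (3275) and 5 for Treatment against Prevention (1196). It was found for 1 for Treatment against SHAM (1092), 2 for Prevention against SHAM (2427) and 1 for OVX against SHAM (1064). Among the named genes these included Igf2, with 0.63 for Treatment against Prevention (SE 0.29, adjusted p = 0.646 in limma), and Wfdc2, with -0.36 for Prevention against SHAM (SE 0.15, adjusted p = 0.236) and -0.27 for OVX against SHAM (SE 0.13, adjusted p = 0.750).

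**Figure D4:**
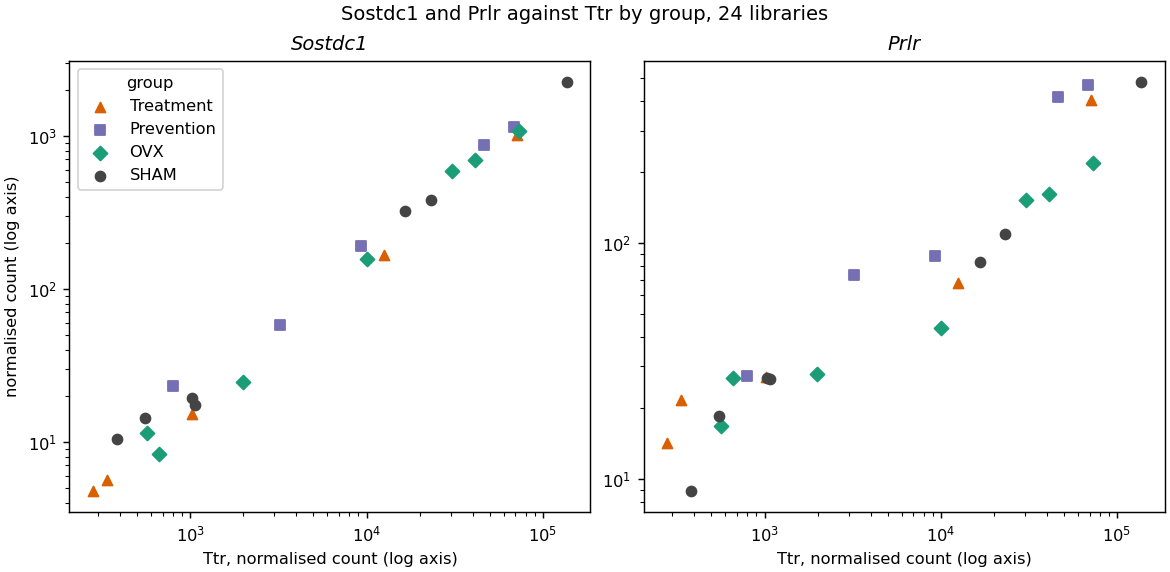
Sostdc1 and Prlr (normalised count, log axis) against Ttr (normalised count, log axis) in 24 libraries, coloured by group. Where Ttr is 68774 to 73531, Prlr is at 405 in Treatment replicate 6 and 467 in Prevention replicate 1, against 219 in OVX replicate 2. Sostdc1 is at 1015, 1143 and 1074 in these libraries, which were picked after their values were seen.

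Markers of tissues beside the choroid plexus moved with Ttr less closely. The summed level of 9 ependymal genes had r = 0.488 with log2 Ttr over the 24 libraries, that of 8 genes of meninges and fibroblasts 0.630, and that of 12 thalamic genes 0.510, given as a description. Ependymal sums ran from 1710 to 2683 in Treatment, 1629 to 2003 in Prevention, 1571 to 2373 in OVX and 1532 to 2637 in SHAM libraries. Meningeal sums ran from 1719 to 4913, 1473 to 2475, 1494 to 4528 and 1564 to 3536 in the groups in that order. Thalamic sums ran from 4288 to 14964, 5071 to 19160, 3923 to 15028 and 4272 to 19953.

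Thalamic and choroid RNA were joined in some libraries and apart in others. Treatment replicate 6, Prevention replicates 1 and 4 and OVX replicate 2 had thalamic sums of 14964, 17011, 19160 and 15028 together with Ttr of 46280 to 73531. SHAM replicate 5 had a thalamic sum of 19953 with Ttr at 551, and SHAM replicate 7 a thalamic sum of 5522 with Ttr at 136652. With the summed thalamic list as a covariate, 0 of the 8 genes were called in every comparison, and Ttr changed by -0.36 (SE 1.48) for Prevention against OVX. The part of thalamic tissue in the values of the 8 genes was not tested further. The 4 blood genes summed to 4239 to 7099 in Treatment, 4585 to 9400.2 in Prevention, 4943 to 8122 in OVX and 3845 to 6537 in SHAM libraries (r = 0.326 with log2 Ttr).

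**Figure D5:**
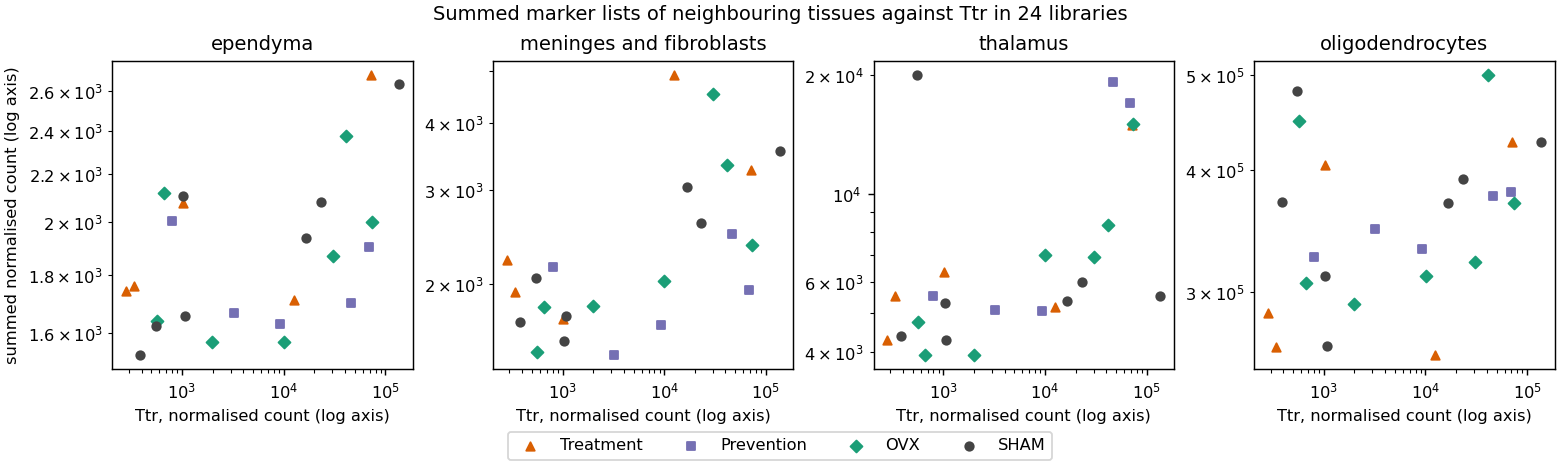
Summed normalised counts (log axis) of the ependymal, meningeal, thalamic and oligodendrocyte lists against Ttr (normalised count, log axis) in 24 libraries, coloured by group. In the thalamic panel SHAM replicate 5 is high (19953) at low Ttr, and SHAM replicate 7, highest in Ttr, is at 5522.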

How the data were processed

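RNA of frozen hippocampus was sequenced in 24 libraries, per the labels. The values the authors deposited are normalised counts, treated here as a signal. Per the submitters' processing notes kallisto 0.43 and DESeq2 (no version named) were used, with genome build, annotation and filters not given in the sources used here. Values are not whole and whole reads could not be recovered, so no intervals from counting were computed. No 2 libraries were identical.

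Groups and replicate numbers came from the titles. Log2(normalised count + 1) of the 16119 features with a mean of at least 10 was fitted in limma 3.58.1 (R 4.3.3) with a mean per group, a trended empirical Bayes step, 6 contrasts and Benjamini-Hochberg adjustment over all features (threshold 0.05). Correlations were tested by permuting libraries (Python 3.11.15, 100000 resamples, exact over all pairings for 7 libraries), and no p adjusted over the members alone is given. Curves were fitted by least squares on log2 values with scipy 1.17.1, and figures drawn with matplotlib 3.10.9. The code was tested on simulated data. Same-numbered libraries of different groups did not deviate together. Promoters were matched by symbol (4 of 8).

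The members, gene lists, tests and alternatives were chosen with earlier results of these data known. Named are all 8 members, the 5 highest and 5 lowest of the other choroid genes by r, Kcne2, Kcnj13, Prlr, Igf2 and Htr2c, and the 10 features most like Ttr. Changes are given for Ttr and for members with an unadjusted p under 0.05, here Sostdc1 at equal Ttr. Those of Kl, Slc4a5, Prlr, Igf2 and Wfdc2 were added after their values were seen.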

Additional observations from a re-analysis of the deposited data

Results flagged for a closer look

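In 2 groups the highest library stood apart from the rest on the linear scale: its gap to the next library, divided by the range of the group, passed Dixon's 95% value (0.710 for 5 libraries, 0.568 for 7) for all 8 genes. This limit assumes normally distributed values, which linear counts of so wide a range are not, so the share flagged by chance is not known here. The 8 genes are not independent of each other, so these 16 values amount to 2 libraries.

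In Treatment replicate 6, Ttr was 71606 against 12498 in the next highest library of the group, Sostdc1 1015 against 166, Enpp2 21873 against 6838, Aqp1 718 against 165, Slc4a5 1384 against 275, Clic6 3192 against 512, Folr1 762 against 181 and Kl 2527 against 467 normalised counts.

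In SHAM replicate 7, Ttr was 136652 against 23186 in the next highest library, Sostdc1 2260 against 379.9, Enpp2 36015 against 12109.9, Aqp1 2043 against 372, Slc4a5 3340 against 521, Clic6 6474 against 1142, Folr1 1449 against 286 and Kl 5474 against 896 normalised counts. On the log2 scale used for the tests, 0 of the 16 values passed the same limit.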

How the results depend on the processing

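The count of 0 members called in each of the 6 comparisons was also found with quantile normalisation, pseudocounts of 0.5 and 8, the filter dropped or raised to 100, only the 2 groups compared, log2 Ttr or the summed thalamic list as covariate, the library set as a term, the replicate block, and without each of the 24 libraries. The design gives Ttr a wide error, so these counts say little about stability. The change of Ttr was never called. Its sign turned for Treatment against OVX (0.507) and Treatment against SHAM (1.34) with the set as a term, and for Prevention against OVX with the thalamic list as covariate (-0.362), the last chosen after seeing the data. The set term rests on Treatment replicates 1 and 2 against 5, 6 and 7 alone, and the causes were not tested. Leaving out each library, the change of Ttr ranged from -0.244 to 1.36 for Prevention against OVX and -1.87 to 0.207 for Treatment against SHAM. It ranged from -2.70 to -0.704 for Treatment against OVX and -3.17 to -1.18 for Treatment against Prevention. For Prevention against SHAM it ranged from 0.586 to 2.19, and for OVX against SHAM from 0.258 to 1.69.

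Every r with Ttr kept its sign and a permutation p under 0.05 under all alternatives run, its lowest value being 0.919 for Enpp2 within the low set. The replicate numbers did not pair the libraries: deviations of same-numbered libraries in different groups correlated at -0.442 to 0.371, with 8 of 30 pairs over 0.1. With the replicate block r was 0.958 for Folr1, 0.995 for Kl and Sostdc1, 0.9845 for Clic6, 0.964 for Aqp1, 0.9375 for Enpp2 and 0.990 for Slc4a5, 0 members were called, and Ttr changed by -1.68 for Treatment against OVX, 1.28 for Prevention against OVX, -2.96 for Treatment against Prevention, -0.852 for Treatment against SHAM, 2.11 for Prevention against SHAM and 0.83 for OVX against SHAM. At equal Ttr, Sostdc1 for Treatment against Prevention ranged from -0.500 to -0.320 and Prlr for Prevention against OVX from 0.672 to 0.935 without each library, and neither passed under any alternative. These alternatives, and those of the Enpp2 residual, were chosen after seeing the data.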
